A study of Mus musculus with 15 samples.

Results

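The cytosolic ribosomal protein genes encode the proteins of the 60S (large) and 40S (small) subunits of the ribosome that translates nuclear-encoded mRNA. They were taken from the deposited tables by symbol: names of the form Rpl or Rps followed by a number, with an optional letter or l form, together with Rpsa, Rplp0, Rplp1 and Rplp2, and without names holding -ps. The rule found 85 genes of 25080 listed (52 of the 60S and 33 of the 40S subunit), and 82 of them (49 and 33) reached 1 TPM in at least 3 libraries and were among the 13471 genes tested. The untested members, Rpl3l, Rpl10l and Rpl39l, stayed close to 0, and the level of each is given below. Every gene whose symbol fits was kept, so the annotated pseudogenes Rpl32l and Rps4l are members too, while Fau and Rack1, which encode further ribosomal proteins, fall outside the rule.

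RNA came from the thalamus of adult mice of 2 to 4 months. Control mice (labelled Maged1 WT) keep a functional Maged1, and their genotype tag, Maged1 Loxp, is that of a floxed allele that stays intact without Cre. In Maged1-cKO mice the vGluT2 promoter drives Cre, so the floxed gene is lost from glutamatergic Vglut2 neurons and other cells keep it. All mice had 3 days of saline injections and then 5 days of saline or of cocaine at 20 mg/kg. The libraries, depleted of ribosomal RNA, number 4 for control saline, 4 for control cocaine, 4 for cKO saline and 2 for cKO cocaine. Titles set the groups, and for 4 saline libraries the tag gives a different genotype from the title. The thalamic and glutamatergic neuron markers were all present, with 10 of 10 tested. A rise or fall in such bulk tissue cannot separate more cells of a type from more RNA per cell.

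Values are TPM, abundance per transcript length, divided by a trimmed-mean scaling factor of each library ("scaled TPM"), and a change is a difference of log2(scaled TPM + 0.5). TPM add up to a fixed total in each library, but the listed values summed to 312659 to 377401. Part of that total is therefore not listed, and shares below are of listed TPM only. A gene was called at a limma adjusted p-value under 0.05 over all 13471 tested genes.

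The targeted gene went with the titles after saline and against the labels after cocaine. Maged1 stood at 153, 167, 149.9 and 151 scaled TPM in saline controls, 77.4, 76.6, 68.2 and 64.6 in saline cKO mice, 58.5, 87.7, 77.3 and 70.7 in cocaine libraries with the control label and 154 and 174 with the cKO label. For that reason the genotype of a cocaine library is given below as its label only, and the comparison of cocaine with saline over both genotypes, which is the same whichever way those labels run, is given first. For the 4 saline libraries whose tag differs (3 and 4 of control, 1 and 2 of cKO), the Maged1 level went with the title. Grouping by tag therefore puts both Maged1 levels in each saline group. In addition, 2 short RNAs moved with treatment. Gm20594 accounted for 2.29% to 4.38% of listed TPM in the saline libraries and 10.4% to 17.1% in the cocaine libraries, and Bc1 for 3.60% to 5.00% and 10.3% to 15.5%. The scaling factors were 0.807 to 0.939 after cocaine and 1.07 to 1.22 after saline, with no overlap. Hypothalamic genes, from a neighbouring tissue, were also not level, with a summed level of 133 to 465 scaled TPM in control saline and 2.53 to 127 in the libraries labelled control cocaine, 6 of 6 genes lower in that comparison. A choroid plexus sum of 1457 in the control saline library 1 compared with 3.69 to 44.8 in cKO saline. The part of these in the results below was not tested.

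Ribosomal protein genes are transcribed at high rates in every cell and their products are needed in nearly equal numbers in each ribosome. Many of their mRNAs begin with a C followed by a run of pyrimidines, the 5′ terminal oligopyrimidine (TOP) element, through which mTOR signalling sets how strongly they are translated. Neurons use this system in the cell body and near synapses, and a few members have duplicated copies (paralogs) or roles outside the ribosome.

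To show the starts behind these transcripts, 30-base windows (15 bases before the RefSeq start and 15 from it on, build GRCm38.p6, 5′ to 3′ on the gene's strand) are given for 5 members that rose after cocaine and 3 that fell. Capitals mark the longest run of pyrimidines near the start in the window. The run need not begin at the start, so capitals do not mark a TOP element. In Rpl19, Rpl31, Rpl24, Rps15 and Rps15a the run ends before the start. The RefSeq start lies 281 bases from the GENCODE M21 start for Rplp2 and 72 for Rpl22l1. The windows were chosen to span both directions and starts with and without a long run, and the sequences are those of RefSeq.
Rpl19 (chr11:98026909-98026938, plus strand): tgggCTCTCCCCTTCgcagataatgggcgg
Rpl31 (chr1:39367836-39367865, plus strand): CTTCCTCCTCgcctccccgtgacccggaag
Rpl7a (chr2:26910792-26910821, plus strand): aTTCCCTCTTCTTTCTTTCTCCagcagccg
Rpl24 (chr16:55966260-55966289, plus strand): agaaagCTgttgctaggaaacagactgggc
Rps15 (chr10:80292416-80292445, plus strand): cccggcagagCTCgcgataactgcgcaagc
Rpl22l1 (chr3:28805493-28805522, plus strand): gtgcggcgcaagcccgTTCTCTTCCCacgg
Rplp2 (chr7:141447636-141447665, plus strand): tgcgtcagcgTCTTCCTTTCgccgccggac
Rps15a (chr7:118116133-118116162, minus strand): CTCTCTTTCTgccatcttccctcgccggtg
Of the 85 members, 64 had a start in the table and 21 did not (Rpl21, Rpl29 and Rps27a among them). A run of at least 8 pyrimidines within 10 bases of the start occurred in 28 of 64 members (43.8%), against 13.3% of 17984 other genes. Among members with a start, 14 of 26 that rose and 5 of 10 that fell had one. A C at the start itself was found in 20 of 64 members (31.25%) and 13.7% of other genes. CTTTCC on either strand of the 300-base promoter occurred in 32 of the 64 members and 26.2% of other genes, and CCGGAAG, an ETS-type motif, in 39.1% and 11.9%. Those letters describe the windows and say nothing of which factor acts there.

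Members were abundant. The median tested member had a mean of 134 scaled TPM over the 14 libraries, against 7.19 for all tested genes, and 73 of 82 were at 50 or more. The highest were Rplp1 and Rpl41 (463 and 444 scaled TPM, mean of all libraries), followed by Rpl38 (409.8), Rps29 (399) and Rps15 (299.6). Rplp1 is one of the acidic proteins of the stalk that recruits translation factors, and Rpl41 is a very short peptide at the subunit interface. The lowest were Rpl32l (1.06), Rps6 (5.58), Rps27 (7.24), Rps4l (10.6) and Rpl7l1 (10.9). Together the members summed to 11598 to 12130 scaled TPM in control saline, 11105 to 11539 in cKO saline, 11991 to 12433 with cocaine and the control label, and 11915 and 12078 with cocaine and the cKO label. As a share of listed TPM they made up 3.80% to 4.10% in the saline libraries and 2.83% to 3.22% in the cocaine ones. With Gm20594 and Bc1 taken out of the total, the shares overlapped, at 4.17% to 4.48% and 4.11% to 4.34%.

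Over both genotypes, more members were higher than lower after cocaine. Of the 82, 33 were higher (40.2%, against 17.8% of all tested genes) and 12 lower (14.6%, against 15.3%), and 37 did not pass the test (limma). At an unadjusted p-value under 0.05 there were 53 (background 42.9%). The median member changed by 0.07 on the log2 scale and the median of all tested genes by 0.0076, so the shifts were small, and with a minimum change of 0.5 only Rpl21, Rpl19 and Rpl31 were higher (background 1.05%) and Rpl22l1 lower (background 1.02%). Among 60S members 23 of 49 rose and 7 fell, and among 40S members 10 of 33 rose and 5 fell, a difference between subunits that was not tested. For 20 members (24.4%, against 5.95% of all tested genes) every cocaine library was above every saline library, and for 4 (4.88%, against 5.00%), Rpl22l1, Rplp2, Rps27a and Rpl35a, every one was below. These counts rest on the scaling. With TPM as deposited, where the median of all genes was -0.34, 2 members were higher and 68 lower (2.44% and 82.9%, against 0.891% and 79.1% of all tested genes). With quantile normalization 17 were higher and 27 lower (20.7% and 32.9%, against 15.2% and 16.6%), and median-of-ratios scaling gave 33 and 14 (40.2% and 17.1%, against 16.2% and 16.5%). Neuron markers moved in the same comparison. Of the 10 thalamic and glutamatergic neuron genes, 3 rose and 0 fell over both genotypes (8 with a positive difference, median 0.22), and 5 rose and 1 fell in control by label. Their summed level was 1058 to 1232 scaled TPM in control saline, 1179 to 1351 in cKO saline, 1257 to 1480 with cocaine and the control label, and 1225 and 1345 with cocaine and the cKO label. The part of these markers in the members' counts was not tested.

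**Figure D1:**
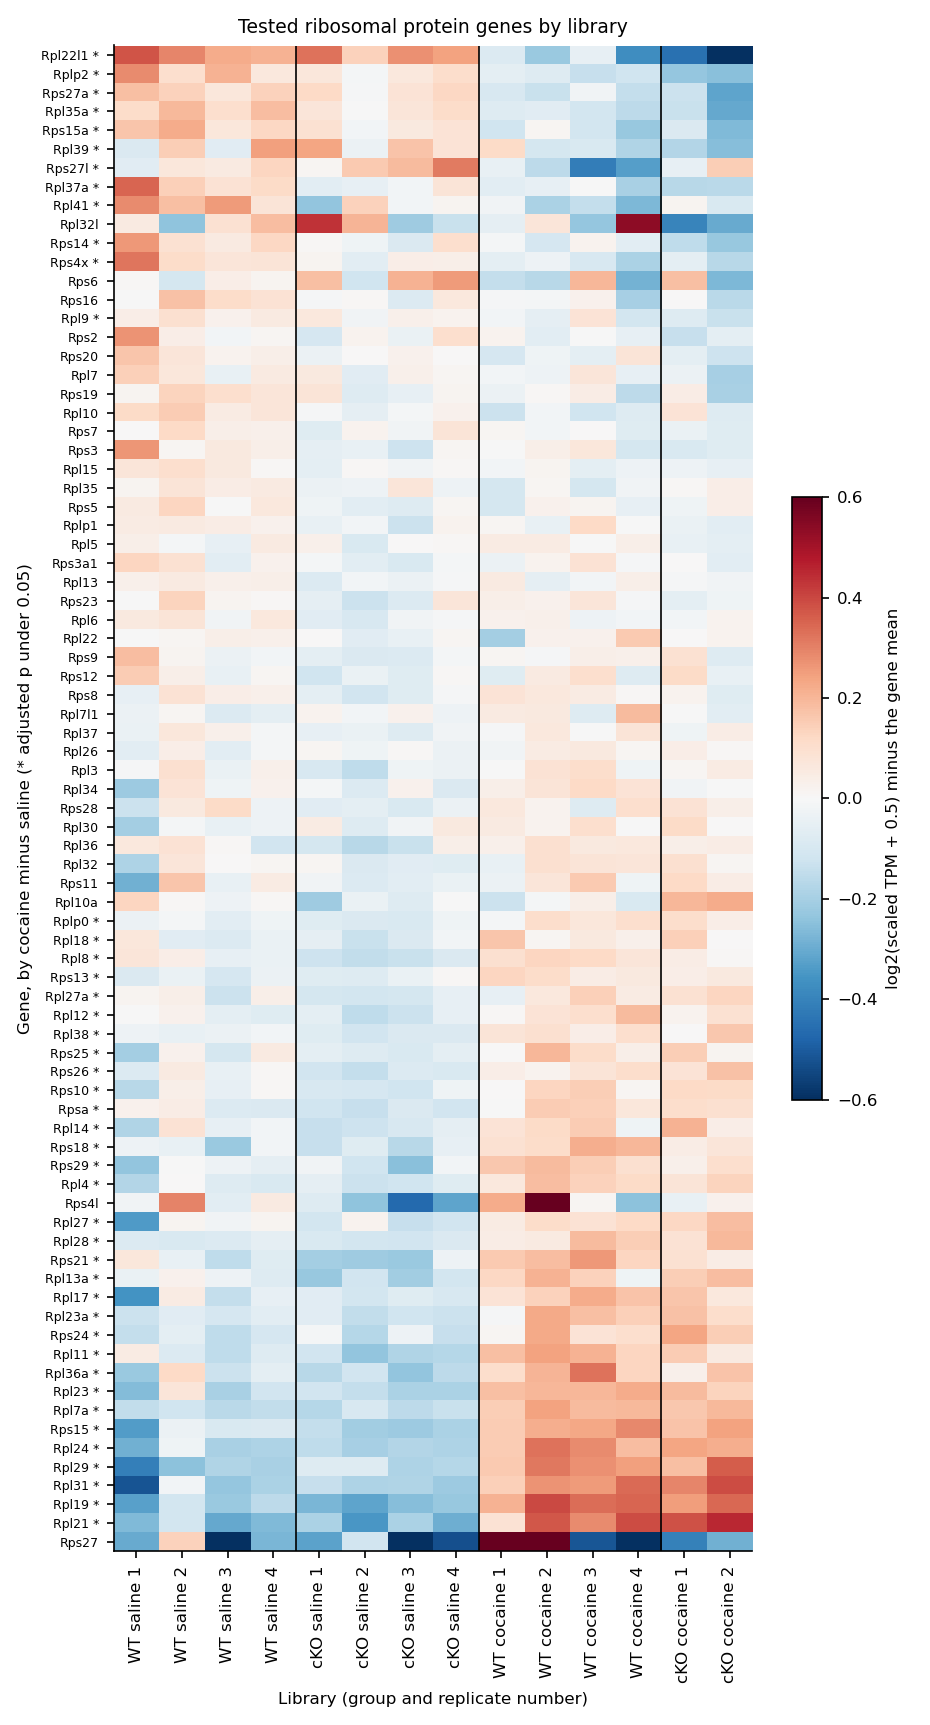
Heat map of tested ribosomal protein genes, less those not reported here (rows, sorted by their cocaine minus saline change, stars for adjusted p-value under 0.05) across 14 libraries (columns). Colour is log2(scaled TPM + 0.5) minus the gene's mean over libraries, clipped at 0.6 either way. The lower rows are blue in the saline columns and red in the cocaine columns, and Rps27 is high in 2 libraries labelled WT cocaine.

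The largest rises were in 60S proteins. Rpl21, of the large subunit, stood at 54.5, 60.8, 53.0 and 54.6 scaled TPM in saline controls, 57.6, 51.5, 57.5 and 53.5 in saline cKO mice, 69.8, 85.1, 80.2 and 86.2 in cocaine libraries with the control label and 85.8 and 89.9 with the cKO label. All 6 cocaine libraries lay above all 8 saline libraries (log2 difference 0.60, SE 0.053, adjusted p = 1.06e-05, limma), 51.1% higher. Rpl19, which reaches across to the small subunit, was at 129, 150.1, 139 and 145 scaled TPM in saline controls, 134, 130.3, 136 and 138 in saline cKO mice, 187, 213, 205 and 207 in cocaine libraries with the control label and 193 and 206 with the cKO label. It did not overlap either and rose by 45.9% (log2 difference 0.55, SE 0.041, adjusted p = 3.73e-06, limma). Rpl31, which lies near the exit of the peptide tunnel, was at 52.4, 74.4, 64.0 and 65.9 scaled TPM in saline controls, 68.3, 66.2, 66.4 and 64.7 in saline cKO mice, 83.1, 91.0, 89.9 and 95.5 in cocaine libraries with the control label and 92.3 and 98.9 with the cKO label. Its cocaine libraries were again all higher (log2 difference 0.51, SE 0.065, adjusted p = 0.000112, limma), with control saline library 1 the lowest of all.

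Rpl29, Rpl24 and Rps15 were next, each with cocaine libraries above all saline libraries. Rpl29, also known as a heparin-binding protein, went from 75.6, 84.8, 88.7 and 87.7 scaled TPM in control saline and 95.2, 95.3, 88.5 and 89.3 in cKO saline to 112, 125, 122 and 119 and 114 and 129 (log2 difference 0.45, SE 0.046, adjusted p = 2.54e-05, limma). Rpl24, which forms a bridge to the 40S subunit, went from 97.8, 118, 104 and 105 and 108, 104, 106 and 105 to 133, 150.2, 146 and 136 and 141 and 139 (log2 difference 0.41, SE 0.042, adjusted p = 2.5e-05, limma). Rps15, in the head of the small subunit near the decoding site, went from 235, 290.0, 278 and 279 and 269, 256, 255 and 260.0 to 329.8, 346, 349 and 362 and 334 and 351 (log2 difference 0.38, SE 0.046, adjusted p = 7.63e-05, limma). With unscaled TPM the change of Rps15 was -0.0039, the opposite sign, while the 5 larger rises kept theirs but Rpl31, Rpl29 and Rpl24 no longer passed. The 27 other members that rose changed by 0.12 (Rplp0) to 0.33 (Rpl7a).

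The falls were led by Rpl22l1, a paralog of Rpl22. It stood at 94.7, 89.1, 84.9 and 84.0 scaled TPM in saline controls, 91.3, 80.1, 88.0 and 86.1 in saline cKO mice, 68.7, 62.3, 70.3 and 56.1 in cocaine libraries with the control label and 53.2 and 38.5 with the cKO label. The cocaine libraries were all below the saline libraries, and the libraries labelled cKO cocaine were the lowest (log2 difference -0.69, SE 0.074, adjusted p = 3.6e-05, limma), a drop of 38.0%. Rpl22 itself, an RNA-binding protein of the large subunit, stayed between 14.1 and 18.2 (log2 difference 0.0089, 95% interval -0.092 to 0.11). The Rpl22l1 share of the summed pair was 83.5% to 85.4% in control saline, 83.8% to 84.8% in cKO saline, 75.5% to 83.0% with cocaine under the control label, and 70.0% and 76.6% with cocaine under the cKO label.

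Rplp2, Rps27a, Rpl35a and Rps15a fell by less. Rplp2, the partner of Rplp1 in the stalk, was at 229, 202, 217 and 196 scaled TPM in saline controls, 197, 187, 196 and 202 in saline cKO mice, 181, 178, 171 and 173 in cocaine libraries with the control label and 160.0 and 158 with the cKO label (log2 difference -0.28, SE 0.037, adjusted p = 0.000147, limma). The groups did not overlap. Rps27a, made as a fusion with ubiquitin, was at 128 to 146 scaled TPM over the 8 saline libraries and 103 to 127 over the 6 cocaine libraries (log2 difference -0.27, SE 0.038, adjusted p = 0.000224, limma), and Rpl35a at 162 to 185 scaled TPM over the 8 saline libraries and 131 to 155 over the 6 cocaine libraries (log2 difference -0.27, SE 0.034, adjusted p = 0.000116, limma). Neither gene had overlapping treatments. Rps15a, a 40S member listed at a low level, was at 12.9 to 15.3 scaled TPM over the 8 saline libraries and 10.8 to 13.1 over the 6 cocaine libraries, which overlap (log2 difference -0.24, SE 0.045, adjusted p = 0.00138, limma). Rpl39, which lines the peptide tunnel, was at 104 to 131 scaled TPM over the 8 saline libraries and 92.7 to 120.0 over the 6 cocaine libraries, overlapping (log2 difference -0.23, SE 0.068, adjusted p = 0.0212, limma). The call for Rpl39 was lost without cKO cocaine library 2 (adjusted p = 0.0979, limma), with GC and length trends removed, and in the libraries whose title and tag agree.

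**Figure D2:**
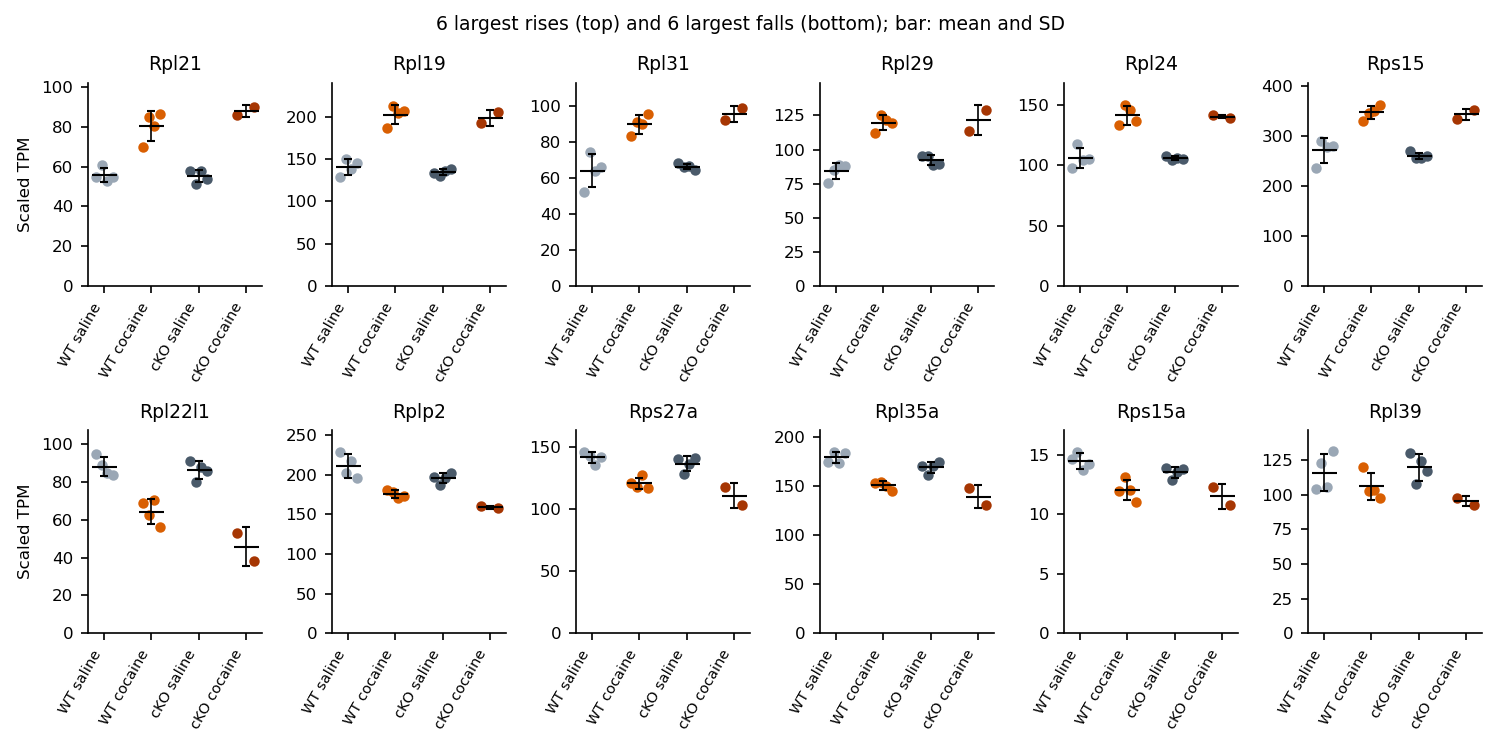
Scaled TPM (vertical axes, from 0) of the 6 members with the largest rises (top row) and the 6 with the largest falls (bottom row) in the 4 labelled groups. Points are libraries and bars are the mean and SD. Rpl21 is at 51.5 to 60.8 after saline and 69.8 to 89.9 after cocaine.

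The abundant Rps29 and Rpl38 rose as well (0.20 and 0.14, adjusted p = 0.00671 and 0.00235, limma), while Rpl41 fell (-0.18, adjusted p = 0.0353, limma), a call lost with any of 9 libraries left out (largest adjusted p = 0.16, without cKO cocaine library 2, limma) and with the genotype from the tag, the replicate block or no filter on low values. With unscaled TPM, Rps29 and Rpl38 had differences of -0.18 and -0.24, the opposite sign. Neither passed with quantile normalization, and Rpl38 did not pass with GC and length trends removed or in the libraries whose title and tag agree.

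The stalk and the proteins with roles outside the ribosome did not move as one. Rplp0, the base of the stalk, rose (log2 difference 0.12, SE 0.027, adjusted p = 0.00417, limma), Rplp2 fell as above, and Rplp1 had a log2 difference of -0.016 (adjusted p = 0.748, limma). Rpsa, also known as the laminin receptor, rose (log2 difference 0.17, SE 0.034, adjusted p = 0.00247, limma). With unscaled TPM, Rplp0, Rpsa and Rpl11 had negative differences. Rplp0 and Rpsa did not pass with quantile normalization or in the libraries whose title and tag agree, nor did Rplp0 with GC and length trends removed. Rpl5 and Rpl11 travel together with 5S RNA and both bind Mdm2 when ribosome assembly is disturbed. Rpl11 rose, at 56.9 to 69.6 scaled TPM over the 8 saline libraries and 69.8 to 79.4 over the 6 cocaine libraries (log2 difference 0.27, SE 0.037, adjusted p = 0.000189, limma), whereas Rpl5 was at 47.4 to 52.5 scaled TPM over the 8 saline libraries and 48.5 to 52.4 over the 6 cocaine libraries (log2 difference -0.0071, 95% interval -0.066 to 0.052), which became 0.14 with GC and length trends removed (adjusted p = 0.00337, limma). Of the genes outside the rule, Fau and Rack1 had log2 differences of -0.0094 and -0.001 (adjusted p = 0.891 and 0.981, limma).

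Several members could share reads with near-identical copies, though no reads were examined. Of 85 members, 78 have at least 1 other annotated gene with 95% identity over 80% of the coding sequence. Rpl21, with 57 such genes, had the most. For 20 members at least 1 of these copies is listed. Of the falls above, Rps15a has 2 listed copies and Rpl22l1 and Rplp2 have 1 each, and no sum with those copies was tested. Rps27, a zinc-binding 40S protein, was listed at 3.35, 4.72, 2.25 and 3.41 scaled TPM in saline controls, 3.30, 3.87, 1.68 and 2.78 in saline cKO mice, 34.0, 31.1, 2.82 and 1.73 in cocaine libraries with the control label and 3.08 and 3.38 with the cKO label. The 2 libraries labelled control cocaine that stand at 34.0 and 31.1 are far above the rest, and the test gave no call (log2 difference 0.74, SE 0.59, adjusted p = 0.368, limma). Its retrotransposed copy Rps27rt held 262 to 386 scaled TPM. The sum of both was 265 to 336 scaled TPM in control saline, 288 to 322 in cKO saline, 345 to 389 with cocaine and the control label, and 379 and 383 with cocaine and the cKO label. The sum was higher after cocaine (log2 difference 0.28, SE 0.053, adjusted p = 0.0018, limma, on a sum chosen after seeing the data). Rps6, the 40S target of S6 kinase, was at 4.46 to 6.70 and its copy Rps6-ps4 at 164 to 191, so the copy took 96.3% to 97.5% of the sum. That sum had a log2 difference of 0.019 (adjusted p = 0.705, limma). How the reads of such genes were split cannot be told from these values, and the level of Rps27 or Rps6 alone is uncertain.

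**Figure D3:**
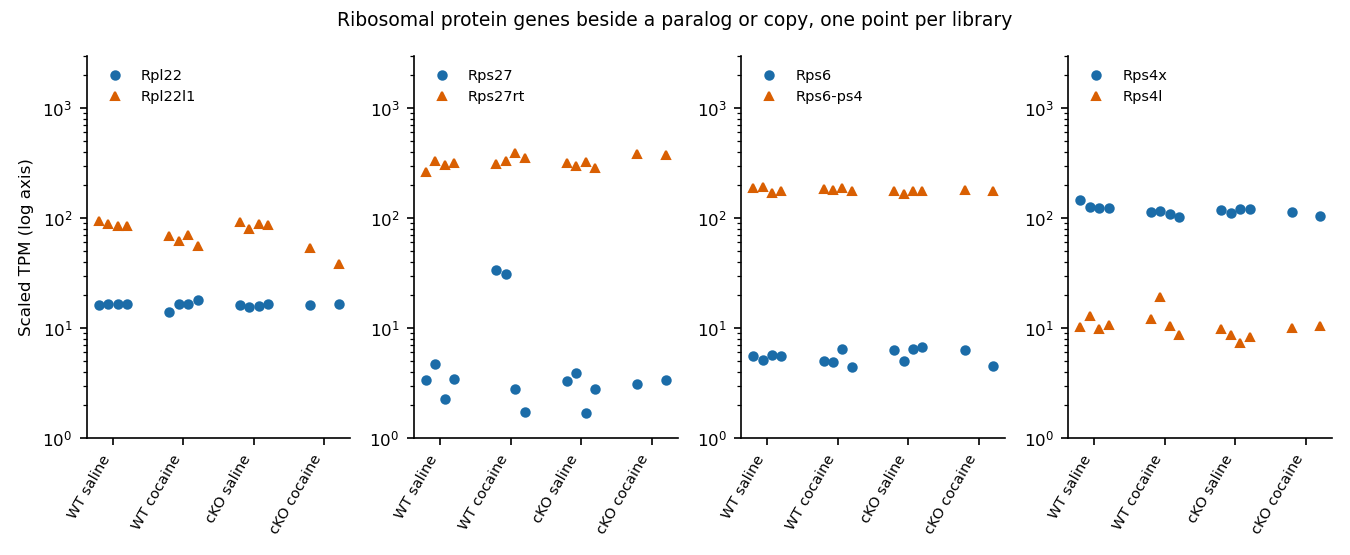
Scaled TPM on a log axis of 4 members (circles) beside a paralog or copy (triangles), one point per library in the 4 labelled groups. Rps27rt and Rps6-ps4 lie well above Rps27 and Rps6, and Rpl22l1 lies above Rpl22 and is lower in the cocaine groups.

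The tissue-restricted paralogs were near absent. Rpl10l, a testis form of Rpl10, was listed at 0 in every library, Rpl39l was at most 0.241 scaled TPM, and Rpl3l, a striated muscle form, at most 0.362, against 175 to 209 for Rpl3. Rpl7l1 (10.3 to 12.5) and Rps4l (7.36 to 19.3) lay far under Rpl7 and Rps4x. Rpl36a and its retrotransposed relative Rpl36al were at like levels and both rose (log2 differences 0.27 and 0.29, adjusted p = 0.00264 and 0.00212, limma), while with unscaled TPM Rpl36a was at -0.11.

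The change was seen with either genotype label. In control mice by label 23 members were higher (background 14.2%) and 11 lower (10.2%). In cKO by label 26 were higher (10.2%) and 6 lower (9.96%), from 2 cocaine libraries. With a minimum change of 0.5 these counts became 3 (background 1.43%) and 0 (1.66%) in control, and 3 (1.97%) and 1 (1.17%) in cKO. These 2 comparisons share no library. Of the 23 higher in control, 22 had a positive difference in cKO and 18 were called there too (78.3% of the control list and 69.2% of the cKO list). Of the 11 lower in control, 10 were negative in cKO and 5 were called in both (45.5% of the control and 83.3% of the cKO list): Rpl22l1, Rpl35a, Rplp2, Rps15a and Rps27a. Across the 82 members the changes had Pearson's r of 0.72 and Spearman's rho of 0.86, which describes genes measured in the same libraries and not replicates. Over all tested genes they were 0.33 and 0.38. The cKO counts rest on 2 cocaine libraries, and they fell when either was left out. Such a fit holds 1 cocaine library with the cKO label. The share of all tested genes under it is not given, so the fall does not show a move particular to the members.

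**Figure D4:**
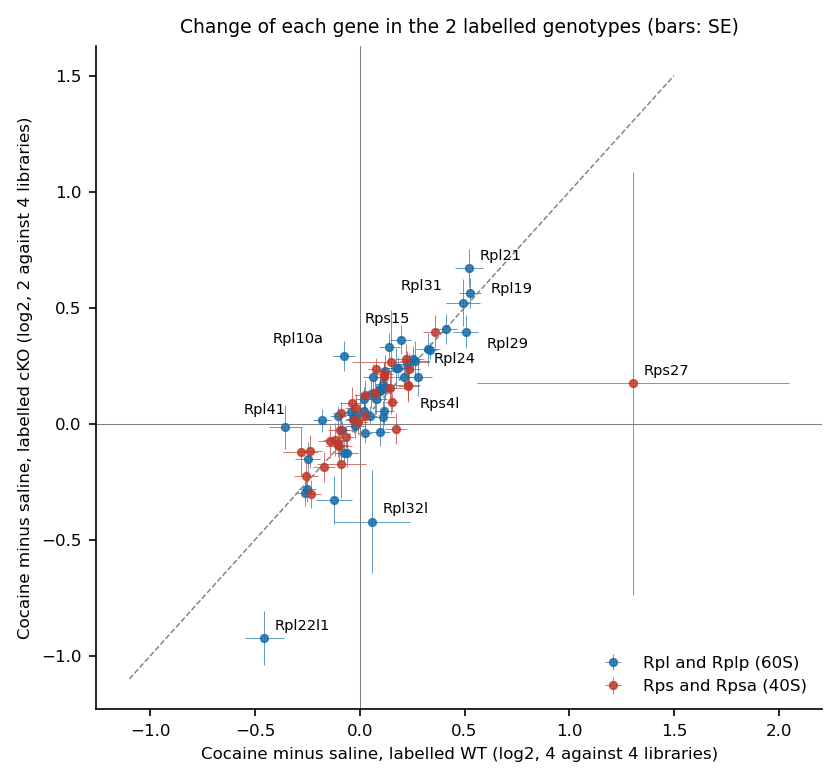
Log2 change of each of the 82 tested members in the libraries labelled control (WT, horizontal) and labelled cKO (vertical), with standard errors, blue for 60S and red for 40S members, and a dashed line where both are equal. Most points lie near the line. Rps27 and Rpl22l1 lie away from it.

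No member was called different between genotypes. After saline, 0 of 82 were called in either direction (limma, background 0.0668% higher and 0.111% lower), and 19 had an unadjusted p-value under 0.05 (background 16.7%). Of the 82, 68 were below and 14 above control (median -0.06, against 0.0024 over all tested genes), and the summed level did not overlap (11105 to 11539 against 11598 to 12130). Markers of other cells moved in the same comparison, and their part was not tested. All 6 oligodendrocyte genes were above control (median 0.45, each with an unadjusted p-value under 0.05 and 0 called, limma), with a summed level of 1409 to 1677 scaled TPM in the control libraries and 1728 to 2443 in those of cKO mice. All 6 ependymal genes had lower levels (median -0.79, 0 called, limma, 4 with an unadjusted p-value under 0.05; sums 20.5 to 23.0 and 4.24 to 14.8), as did 5 of 5 habenula genes (median -1.22, 0 called, limma, 2 with an unadjusted p-value under 0.05; sums that overlap) and 6 of 6 hypothalamic genes (median -1.42, 1 called, sums 133 to 465 and 9.81 to 146). The members' lean was near absent with TPM as deposited (45 below and 37 above) and with GC and length trends removed (47 and 35). Grouping by tag gave 48 and 34, but each tag group holds libraries of both Maged1 levels, so it cannot test a genotype lean. Among the smallest adjusted p-values were those of Rpl8 (0.114, limma) and Rpl37a (0.157, limma), both with lower levels in cKO. In the cocaine libraries, labelled cKO against labelled control, 0 were called (backgrounds 0.0223% and 0.0371%) and 6 had an unadjusted p-value under 0.05 (background 11.9%).

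The interaction, the difference in cocaine change between the labelled genotypes, called 0 members (limma, backgrounds 0.616% and 0.668%), with 8 at an unadjusted p-value under 0.05 (background 18.1%). Sizes and signs of the interaction rest on the cocaine labels, which the Maged1 levels contradict in all 6 cocaine libraries. By those labels Rpl10a, a 60S protein, came closest to a call. It stood at 89.4, 82.1, 80.1 and 82.1 scaled TPM in saline controls, 70.4, 79.6, 77.4 and 81.7 in saline cKO mice, 74.7, 81.1, 83.8 and 76.7 in cocaine libraries with the control label and 93.8 and 95.4 with the cKO label. The 2 libraries labelled cKO cocaine were the highest of all (interaction 0.37, SE 0.083, adjusted p = 0.052, limma). The limma adjusted p-value was 0.0439 with a filter at a mean of 5 TPM and 0.0481 with median-of-ratios scaling. It was 0.779 with genotypes from the tags, which put both Maged1 levels in each saline group. Rpl22l1 had an interaction of -0.47 (95% interval -0.79 to -0.15, adjusted p = 0.117, limma) and Rpl10 one of 0.19 (adjusted p = 0.145, limma). Rpl41 fell in control by label (-0.35, adjusted p = 0.0061, limma, and 0.113 with the genotype from the tag) and had -0.013 in cKO, but its interaction did not pass (adjusted p = 0.163, limma).

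GC content and length were compared with the change. Tested members had transcripts of 345 to 5179 nt (median 834) against a median of 2984 nt over all tested genes, and a median GC content of 51.3% against 50.3%. Over all tested genes the cocaine change went with GC content (Spearman's rho 0.52) and hardly with transcript length (-0.072). Over the members rho was 0.20 for GC content, -0.028 for transcript length, 0.043 for coding length and 0.069 for the number of copies. After trends in GC content and length were removed, 26 members were higher and 12 lower (31.7% and 14.6%, against 11.2% and 8.57% of all tested genes), and the change before and after had Pearson's r of 0.95 across members. With TPM rescaled to genes with transcripts of at least 500 nt, an alternative chosen after seeing the data, 29 of 72 were higher and 11 lower (40.3% and 15.3%, against 15.2% and 12.8% of all tested genes).

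**Figure D5:**
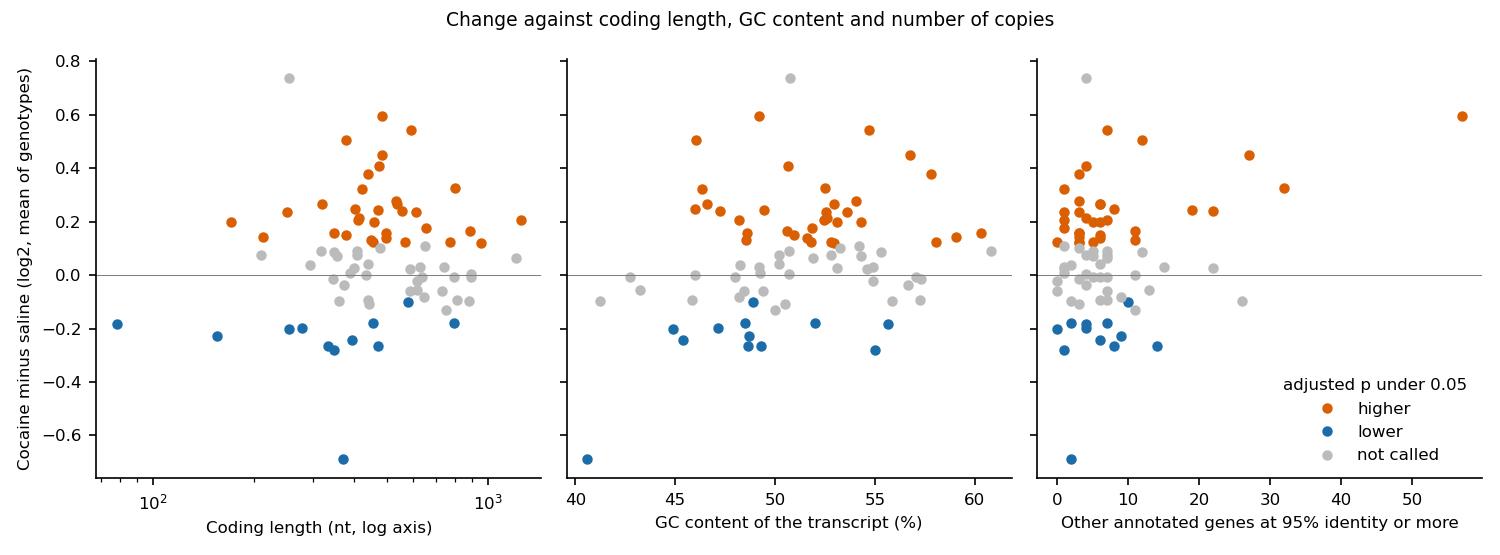
Cocaine minus saline change (log2, mean of the genotypes) of the tested members with a coding sequence against coding length (log axis), GC content of the transcript and the number of other annotated genes at 95% identity or more. Colours mark members called higher, lower or neither. Rpl21 has the most copies, 57, and Rpl22l1 the lowest GC content, 40.6%.

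The rest of the translation machinery was compared by list. Of 78 mitochondrial ribosomal protein genes, which serve translation inside mitochondria, 23 were higher and 6 lower after cocaine (29.5% and 7.69%, against 17.8% and 15.3% of all tested genes). Among 40 translation factors 17 were higher and 9 lower (42.5% and 22.5%), and among 44 ribosome biogenesis factors 13 were higher and 5 lower (29.5% and 11.4%). Their median changes were 0.07, 0.085 and 0.047, beside 0.07 for the members, and no list was set against another by a test. Inside the introns of members lie snoRNA genes, which guide modification of ribosomal RNA: 58 in 30 members. Of 16 that were tested, 2 were higher (Snora7a in Rpl32 among them) and 1 lower (Snora3 in Rpl27a). Members with and without a snoRNA gene had the same median change, 0.075.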

How the data were processed

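Thalamic RNA was sequenced as stranded, paired-end libraries after ribosomal RNA depletion. As the study's methods describe, the authors mapped reads to GRCm38 with STAR 2.5.3a, quantified them with salmon and summarised them with tximport (Ensembl annotation). The deposited values are TPM per gene symbol, 1 table per library. They keep no depth, so counting error is unknown. In 2 of the deposited tables the TPM carry a decimal comma, read here as a point, and the unit of those columns is recorded as other. Of 15 samples, 14 were analysed, and the third cKO cocaine sample was not analysed here.

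Each library was divided by a TMM factor without weights (trims of 30% for log ratios and 5% for means) and put on the log2(value + 0.5) scale. Genes reaching 1 TPM in 3 libraries were fitted with limma 3.58.1 (R 4.3.3, intensity trend) as 4 groups. Contrasts were tested with Benjamini-Hochberg adjustment, and scripts were tested on simulated data. The labels call the samples independent without saying whether each is 1 animal, so p-values measure the spread between these libraries.

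GC content, length and copies come from GENCODE M21 (GRCm38), and start windows from RefSeq (GRCm38.p6). The named genes were the 6 largest rises and falls, the 5 highest and 5 lowest levels, paralog pairs, the stalk with Rpsa, Rps6, Rpl5, Rpl11 and Rps27a, and the 3 smallest adjusted p-values per genotype contrast. Members, lists and named-gene rule were chosen with earlier results of these data known. Alternatives covered scaling, pseudocount, filters, GC and length, genotype tags, the replicate block and single libraries. Rescaling to longer transcripts, summing copies and leaving out both libraries high in Rps27 were chosen after seeing the data. Some genes that these rules name are not reported here.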

Additional observations from a re-analysis of the deposited data

Results flagged for a closer look

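Rps4x, the X-linked S4 gene, was lower after cocaine over both genotypes (log2 difference -0.18, SE 0.045, adjusted p = 0.00897, limma). That call was kept without control saline library 1. It was lost without cKO cocaine library 2, a fit that leaves 1 library in that group. Rps4x also had 1 library apart from its group. In control saline, library 1 stood at 146.4 scaled TPM and the other 3 at 123.2 to 126.5, a gap of 0.86 of the group's range. Among 105 groups of 4 libraries checked (35 named members) this was the only one, 0.952% of them, where chance alone gives about 1 in 20.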

How the results depend on the processing

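The scaling moved the counts of called members most. With TPM as deposited, 2 members were higher and 68 lower for cocaine over both genotypes, 0 and 63 in control and 1 and 55 in cKO by label; of all tested genes 79.1%, 70.6% and 60.3% were lower there, beside 82.9%, 76.8% and 67.1% of the members. With quantile normalization there were 17 and 27, 11 and 24, and 13 higher in cKO. A minimum change of 0.5 left 3 and 1, 3 and 0, and 3 and 1. In the 10 libraries whose title and tag agree, 20 were higher over both genotypes, 7 in control and 8 in cKO. With genotypes from the tag, which puts both Maged1 levels in each saline group, 6 were lower in control and 14 higher in cKO. With GC and length trends removed, 16 were higher in cKO. For the interaction, median-of-ratios scaling gave 1 member higher and the filter at a mean of 5 TPM gave 1, Rpl10a in both. Apart from the lower counts with TPM as deposited, the counts in this section are given without the share of all tested genes under the same setting. They do not show a move particular to the members. The cause of the moves was not tested.

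Leaving out 1 library at a time gave 30 to 35 higher and 8 to 14 lower over both genotypes, 20 to 24 and 9 to 12 in control, and 10 to 28 and 1 to 7 in cKO. The genotype and interaction counts ranged from 0 to 0 over the libraries left out.

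With the replicate block, 32 were higher and 9 lower over both genotypes, 20 and 10 in control and 19 and 4 in cKO. Rpl41 and Rps27l lost their calls with it (adjusted p = 0.06 for Rpl41, limma), and no other named member did. The replicate numbers mark no shared animal or batch in the labels, and same-numbered libraries did not deviate together (mean correlation of residuals -0.014 over 18 pairs), so the numbers were not treated as pairs.

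With TPM as deposited these members had the other sign for cocaine over both genotypes: Rps15 -0.0039, Rps29 -0.18, Rpl38 -0.24, Rpl7l1 -0.33, Rpl22 -0.36, Rpl3 -0.32, Rpl36a -0.11, Rplp0 -0.26, Rpsa -0.22, Rpl11 -0.11, Rpl10a -0.27 and Rpl8 -0.26, and with GC and length trends removed Rpl5 was at 0.14. Of the other values of named members under the alternatives, 46 lost a call, 22 gained one and 1205 did neither. Depth is unknown, so small changes of Rps6, Rps27 and Rpl32l, at few TPM, cannot be bounded by counting error.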
